A study of Mus musculus with 33 samples.

Results

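The secreted and membrane-bound proteases that cut the extracellular matrix, together with their inhibitors, were followed by RNA sequencing while mouse embryonic stem cell (mESC) cultures were driven toward tendon or fibrocartilage. The members were taken by symbol alone, as every gene named Adamts, Adamtsl, Mmp or Timp followed by a number and at most 1 letter. This gave 44 of the 17120 genes in the table, of which 18 were Mmp, 18 Adamts, 5 Adamtsl and 3 Timp genes. The rule used no measured value, but the table had been limited to genes above a low count, and 7 further genes of these families were not analysed here.

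The mESC lines carried the ScxGFP reporter, in which green fluorescent protein follows Scx, a tendon transcription factor. They were grown as embryoid bodies with the BMP inhibitor LDN-193189 and then with LDN-193189 and the Wnt agonist CHIR to become paraxial mesoderm (PM), which was collected on day 6 (D6). From D6 the cells were grown as monolayers with TGFβ1, the smoothened agonist SAG, FGF2 and a retinoid ligand. The ligand was either CD1530, an agonist of retinoic acid receptor gamma and the tendon condition of the study, or AGN 193109 (AGN), which lowers the basal activity of these receptors as an inverse agonist, and the fibrocartilage condition. Each ligand was sampled at D6.25 and D6.75, then at D7.5, D8.5 and lastly D10, after 0.25, 0.75, 1.5, 2.5 and 4 days with it. Each of the 11 groups held 3 replicates. The study's methods call them biological replicates. Several ScxGFP lines were used, and the labels do not tie a replicate to a line, so p-values measure the spread between these libraries. From D6.25 on, no group was grown without a retinoid ligand. A difference between CD1530 and AGN therefore does not say which ligand moved a gene, and CD1530 was used at the higher concentration. The labels give PM no condition, whereas the enhanced protocol in the study's methods adds AGN or all-trans retinoic acid during PM induction, and the sources do not say whether the sequenced PM cultures had either. The comparisons with PM may therefore hold a start, a change or, for AGN, no change of ligand, and the ligand, the medium, the culture format and time cannot be told apart in them.

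Total counts ran from 17116084 to 22775275 per library, except for AGN replicate 1 at D8.5 with 38120841. Levels are given as TMM-scaled CPM (counts relative to a library size scaled by edgeR), as mean ± SD of 3 libraries. One library stood apart over all genes. CD1530 replicate 1 at D6.75 differed from the other libraries of its group by a chi-square per gene of 20.3 and 21.5, against 2.31 between those. In CD1530 replicate 1 at D6.75, Adamts12 was at 16.8 CPM against 29.0 and 28.0 in the other libraries of the group, and Mmp16 was at 18.2 CPM against 32.1 and 33.3. The cell type labels were compared with marker genes. At D10 all 6 cartilage markers measured were lower in CD1530, with a summed level of 750 to 763 CPM in its libraries and 3980 to 4166 CPM in AGN. Of 8 tendon markers, 2 were higher in CD1530 and 4 lower. Scx was at 858 CPM in CD1530 and 1223 CPM in AGN, and Tnc was at 2605 and 1857 CPM, so this list did not move in 1 direction. The 5 pluripotent markers summed to 2660 ± 47 CPM in PM, and at D10 to 193 ± 3.9 CPM in CD1530 and 286 ± 5.5 in AGN. The 7 presomitic mesoderm markers summed to 140 ± 2.5, 9.23 ± 0.81 and 36.8 ± 1.2 CPM in these groups. Between the conditions at D10, neither list moved in 1 direction. Of the pluripotent markers, Nanog, Esrrb and Dppa5a were called higher with CD1530. Only Pou5f1 was called lower, with a mean of 26.6 CPM against 149 CPM for AGN. Of the presomitic markers, 2 were called higher and 2 lower with CD1530. The largest gap was that of T, with 0.503 against 27.1 CPM. The part of pluripotent cells in the comparisons with PM was not tested. In bulk RNA, fewer cells of a type and less RNA per cell cannot be told apart.

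Matrix metalloproteinases (MMPs) are zinc proteases made as inactive precursors that cut collagens, gelatin, proteoglycans and one another. ADAMTS proteases are secreted relatives with thrombospondin repeats that cut proteoglycans such as aggrecan and versican, trim procollagens or act on microfibrils, while ADAMTS-like proteins share the repeats but have no protease domain. TIMPs bind and block active metalloproteinases, and TIMP2 also takes part in the activation of MMP2 by MMP14. In tendon and cartilage these genes are known for the turnover of collagen and aggrecan.

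Of the 44 members, 29 had a promoter window in the RefSeq table used here (GRCm38.p6, 250 bases before to 50 after the annotated start, 31 windows). The AP-1 motif TGANTCA, which is its own reverse complement, was present in the windows of 5 members and in 7.81% of all 32851 windows. These 5 were Mmp13, Mmp12, Mmp3, Mmp1a and Mmp10, which lie together with Mmp27 on the plus strand of chromosome 9. Their levels are described further on because, by D10, Mmp13, Mmp12, Mmp3, Mmp10 and Mmp27 were lower than in PM in both conditions, while most members were higher. The stretches from 90 to 11 bases before each start are shown in gene order, with the AP-1 letters in capitals.
Mmp13 (chr9:7272424-7272503, plus strand): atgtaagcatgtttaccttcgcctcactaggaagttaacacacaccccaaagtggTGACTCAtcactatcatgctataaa
Mmp12 (chr9:7347284-7347363, plus strand): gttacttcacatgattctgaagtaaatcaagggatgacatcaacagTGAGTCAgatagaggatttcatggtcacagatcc
Mmp3 (chr9:7445732-7445811, plus strand): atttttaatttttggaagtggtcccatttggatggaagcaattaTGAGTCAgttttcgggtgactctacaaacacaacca
Mmp1a (chr9:7464051-7464130, plus strand): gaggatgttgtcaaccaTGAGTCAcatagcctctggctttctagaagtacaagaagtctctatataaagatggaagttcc
Mmp10 (chr9:7502252-7502331, plus strand): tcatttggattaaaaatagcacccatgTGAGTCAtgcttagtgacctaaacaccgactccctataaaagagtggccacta
Mmp27 (chr9:7571306-7571385, plus strand): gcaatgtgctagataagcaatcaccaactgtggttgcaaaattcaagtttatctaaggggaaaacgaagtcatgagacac
The first base of the motif lay between 35 bases (Mmp13) and 73 bases (Mmp1a) before the start, and the Mmp12 stretch belongs to the second of its annotated starts. Retinoic acid receptor elements were searched on both strands as AGGTCA followed by 5 or by 2 bases of any kind and a further AGGTCA. No member window held either, and each was in 0.00913% of all windows. These matches describe letters in a window and not binding.

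To learn how the family entered differentiation, D6.25 and D10 were compared with PM in each condition. Most members were higher than in PM within 0.25 days, and by D10 the levels of the gelatinase Mmp2, the membrane-type protease Mmp14 and the inhibitors Timp2 and Timp3 had risen in both conditions. A gene was called at an edgeR adjusted p under 0.05 over all 17120 genes. In CD1530 at D6.25, 36 of 44 members were called (32 higher, 4 lower), where 67.8% of all genes were called (34.5% higher, 33.3% lower). In AGN at D6.25, 39 were called (35 higher, 4 lower), against 68.1% of all genes (35% higher, 33.1% lower). In CD1530 at D10, all 44 were called (36 higher, 8 lower), against 83.2% of all genes (43.3% higher, 39.9% lower). In AGN at D10, 41 were called (34 higher, 7 lower), against 82% of all genes (41.6% higher, 40.4% lower). These were 81.8%, 88.6%, 100% and 93.2% of the members. The median log2 difference from PM at D10 was 2.07 over members and 0.04 over all genes in CD1530, and 2.45 over members and 0 over all genes in AGN. Both conditions were compared with the same 3 PM libraries. Between successive days in CD1530, 29, 32, 27 and 26 members were called, against 45.9%, 34.2%, 36.5% and 57.3% of all genes. In AGN the counts were 24, 29, 27 and 32, against 43.7%, 30.3%, 42.1% and 59.4%.

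Levels were compared between genes per kb of exon, and the 4 members with the highest levels per kb at D10, in both conditions, were the gelatinase Mmp2, the inhibitors Timp2 and Timp1 and the membrane-type Mmp14. Summed over the 18 MMPs, the level rose from 204 ± 13 CPM per kb in PM to 559 ± 1.5 with CD1530 and 700 ± 22 with AGN by D10 (SD, n = 3). Of that sum at D10, Mmp2 made up 54.8% in CD1530 and 55.3% in AGN, and Mmp14 made up 22.3% and 27.4%. In PM, Mmp2 made up 28.9% and stromelysin Mmp3 28.4%. The 3 TIMPs summed to 87.9 ± 5.2 CPM per kb in PM, 342 ± 13 in CD1530 and 367 ± 4.7 in AGN. The 18 ADAMTS proteases summed to 15.3 ± 1.1, 111 ± 2.1 and 108 ± 2.7 CPM per kb. The 5 ADAMTS-like genes stood at 3.25 ± 0.38, 14.5 ± 0.41 and 93.5 ± 1.9 CPM per kb, and Adamtsl2 alone made up 91.7% of the last value. No test was made on these sums.

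**Figure D1:**
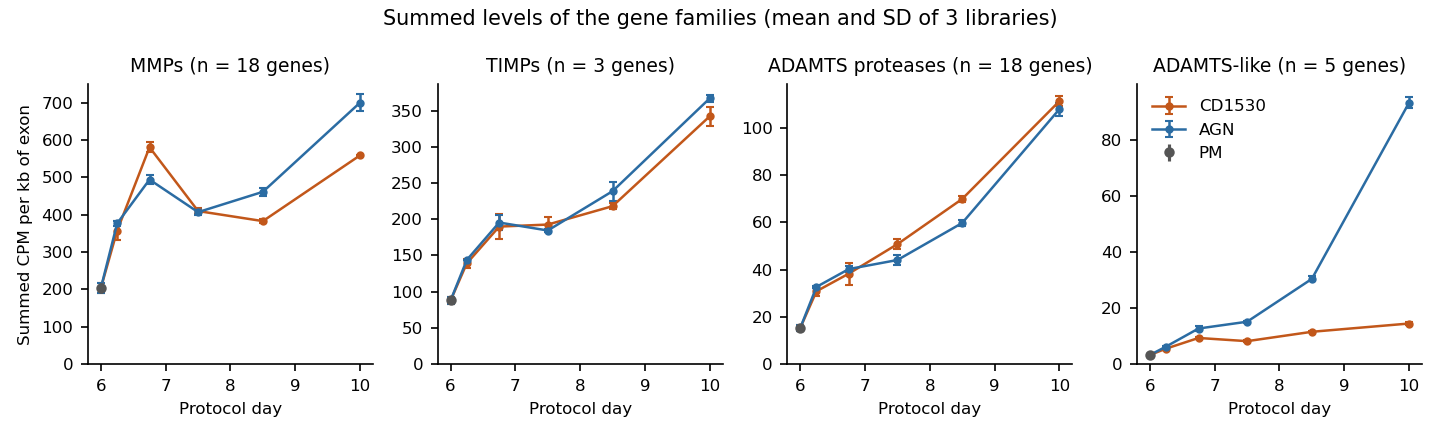
Summed level of each family in CPM per kb of exon (y axis, linear from 0) against protocol day (x axis); points are means and bars SDs of 3 libraries, with PM at D6 shared by both conditions. The MMP sum peaks at D6.75 in CD1530 and is highest at D10 in AGN. The ADAMTS sum is 70.0 in CD1530 and 59.8 in AGN at D8.5, and 111 and 108 at D10. The ADAMTS-like sum rises to 93.5 in AGN and 14.5 in CD1530.

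The comparison of CD1530 with AGN at each day asks when and in which members the conditions parted. At D6.25 only Mmp9 and Mmp17 were called, both higher in CD1530, where 1.92% of all genes were called (1.23% higher, 0.695% lower). That count was 6 without CD1530 replicate 2 and 1 without CD1530 replicate 3. At D6.75, 12 members were called (4 higher, 8 lower), against 18% of all genes (7.94% higher, 10% lower), and the count was also 12 without CD1530 replicate 1. At D7.5, 20 were called (9 higher, 11 lower), against 26.9% of all genes (15.2% higher, 11.8% lower). At D8.5, 26 were called (12 higher, 14 lower), against 40% of all genes (20.4% higher, 19.6% lower). At D10, 31 were called (10 higher, 21 lower), against 46.6% of all genes (22.7% higher, 24% lower). The members called were 27.3%, 45.5%, 59.1% and 70.5% of all members from D6.75 to D10. A call with an absolute log2 difference of at least 1 was made for 9 members, or 20.5% of them, against 10.8% of all genes. The libraries of the conditions did not overlap for 35 of 44 members at D10, or 79.5% of members, against 57% of all genes. The median member difference at D10 was -0.18 on the log2 scale (CD1530 minus AGN), and that of all genes was -0.02. Mmp9 was the 1 member called at all 5 days. The 8 members called at none were Adamtsl4, Mmp11, Mmp12, Mmp16, Mmp23, Mmp27, Timp1 and Timp3. The share of all genes called at every day, or at none, was not counted.

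**Figure D2:**
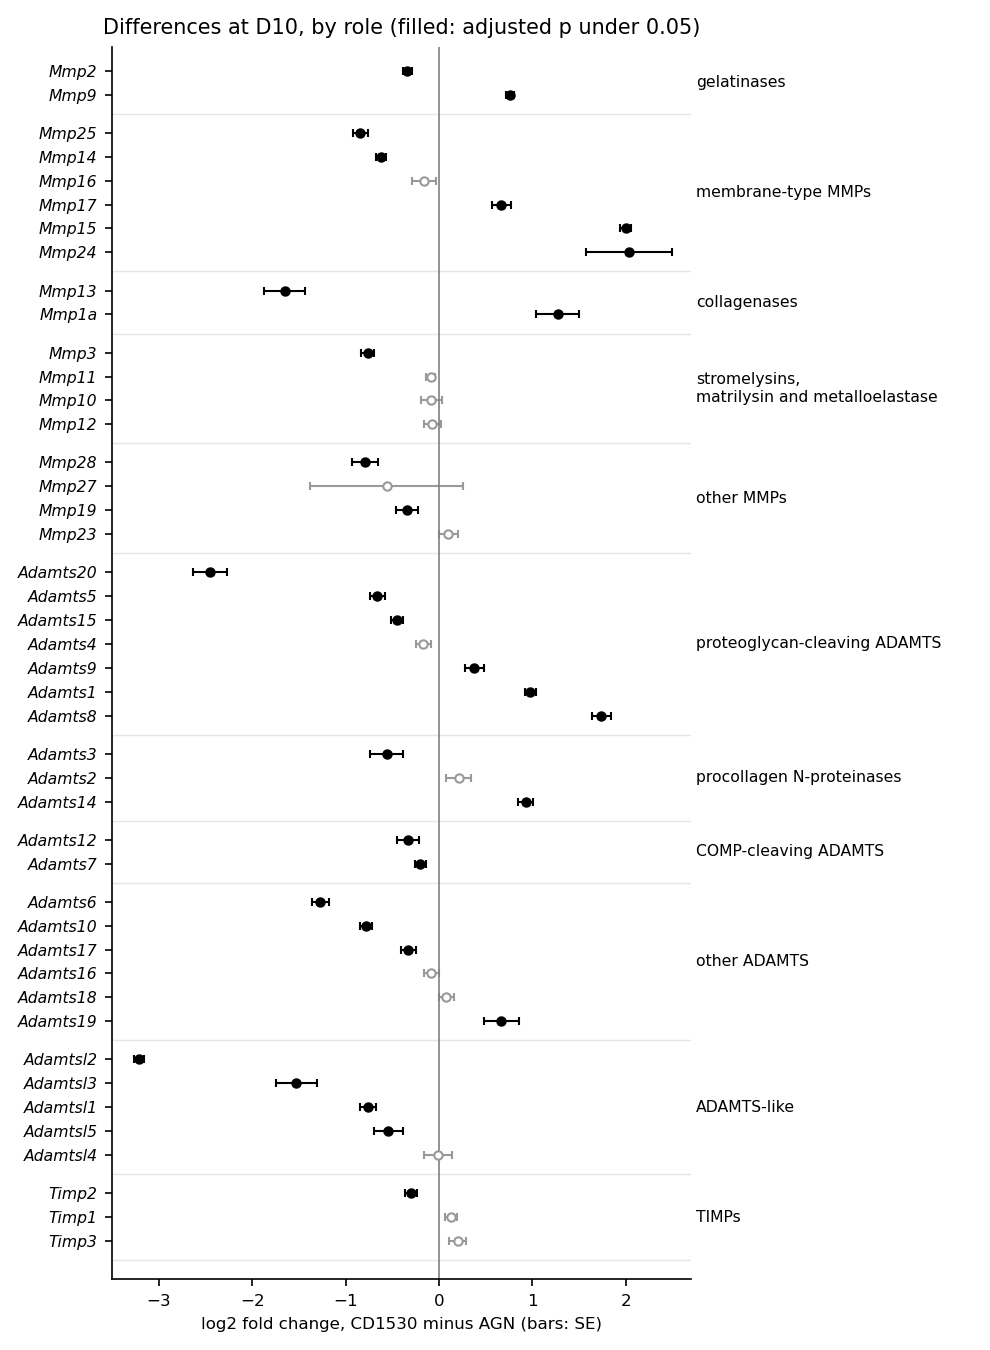
Log2 fold change at D10, CD1530 minus AGN (x axis, log2), for all 44 members grouped by role (y axis); bars are SEs, filled points had an adjusted p under 0.05 and open grey points did not. Adamtsl2 lies farthest to the left at -3.21, and Mmp15 and Mmp24 farthest to the right near 2.

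Adamtsl2, a secreted glycoprotein of the fibrillin microfibrils, had the largest difference of any member. It lies on chromosome 2 (27079379 to 27108981, GRCm38, plus strand; ENSMUSG00000036040). In PM its libraries were at 2.78, 4.16 and 3.12 CPM. At D10 the CD1530 libraries were at 73.5, 76.1 and 73.2 CPM and the AGN libraries at 702, 681 and 672 CPM, so the groups were far apart and each library was close to its group mean. The log2 difference was -3.21 ± 0.05 (SE, edgeR adjusted p 1.05e-39). At D6.25 it was not called between conditions (adjusted p 0.406), with 16.6 ± 0.41 CPM in CD1530 and 18.1 ± 0.66 in AGN. The conditions were called apart at D6.75 (43.8 ± 1.5 and 67.7 ± 1.1 CPM), at D7.5 (log2 difference -1.29) and at D8.5 (64.7 ± 2.0 and 211 ± 6.6 CPM). From D8.5 to D10, Adamtsl2 rose by 1.70 on the log2 scale in AGN and by 0.20 in CD1530.

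Among the other ADAMTS-like genes, which are also matrix glycoproteins, 3 of the remaining 4 were lower in CD1530 at D10. Adamtsl3 was at 1.41, 1.43 and 1.52 CPM in CD1530 and 4.50, 3.85 and 4.28 CPM in AGN. Its log2 difference was -1.53 ± 0.22 (edgeR adjusted p 2.1e-07), and the groups did not overlap. Adamtsl1 stood at 33.2, 29.4 and 28.4 CPM in CD1530 and 51.3, 52.6 and 50.0 CPM in AGN, a log2 difference of -0.76 ± 0.09 (1.21e-09). Adamtsl5 differed by -0.54, and Adamtsl4 by -0.01 with no call. Over the 5 genes the median difference was -0.76, against -0.02 over all genes. The 4 called genes were lower in the condition in which the cartilage markers were lower, and the part of cartilage cell number in the result was not tested.

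The gelatinases, which cut denatured collagen and basement membrane, went opposite ways. Mmp2, the member with the highest level per kb at D10, was at 1032, 1031 and 1035 CPM in CD1530 and 1335, 1323 and 1258 CPM in AGN. All AGN libraries were above all CD1530 libraries, and the log2 difference was -0.34 ± 0.05 (edgeR adjusted p 1.41e-06). Mmp9, known from migrating, bone-resorbing and blood cells and from vessels, was transient. It was at 28.1, 26.6 and 24.0 CPM in PM, and at D6.75 reached 814, 845 and 848 CPM in CD1530 and 431, 433 and 429 CPM in AGN. By D10 it had fallen to 84.7 ± 3.2 CPM in CD1530 and 50.1 ± 0.96 in AGN. CD1530 was above AGN in every library at each of the 5 days, with log2 differences of 0.19 ± 0.03 at D6.25, 0.96 ± 0.03 at D6.75 (edgeR adjusted p 2.54e-24), 1.11 ± 0.04 at D7.5, 0.97 ± 0.04 at D8.5 and 0.76 ± 0.04 at D10.

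Endothelial and blood markers were compared with Mmp9. All 6 endothelial markers measured were higher in CD1530 at D6.75, with a summed level of 437 to 470 CPM against 271 to 285 CPM in AGN and 107 to 112 CPM in PM. The PM sum was mostly Pecam1, at 92.9 CPM. At D7.5 the endothelial sum was 443 ± 8.9 CPM in CD1530, near its D6.75 mean of 452 ± 17, while Mmp9 had fallen from 836 ± 19 to 295 ± 5.8 CPM. In AGN that sum was 275 ± 16 CPM at D7.5. There 5 of the 6 markers were called higher in CD1530 (median log2 difference 0.78). At D8.5 the endothelial sum was 265 ± 5.2 CPM in CD1530 and 220 ± 6.6 in AGN, with 4 markers called higher and 1 lower. At D10, where Mmp9 was still called higher in CD1530, 2 endothelial markers were called higher and 2 lower, with a median log2 difference of -0.07. Of the 7 blood and macrophage markers none was called at D6.75. Their sum, mostly the embryonic globins Hbb-bh1 and Hba-x, was 249 to 291 CPM in CD1530 and 254 to 273 CPM in AGN, and 94.2 to 101 CPM in PM. The leukocyte gene Ptprc was at 2.22 and 2.79 CPM and the macrophage gene Csf1r at 4.72 and 4.91 CPM in these groups. No marker of either list was at 3 counts or fewer in all 3 libraries of either D6.75 group. At D7.5, D8.5 and D10, 0 blood and macrophage markers were called higher in CD1530 and 3 lower on each day. The median log2 differences of that list were -0.46, -0.38 and -0.49. The part of endothelial and blood cells in the Mmp9 result was not tested.

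The membrane-type MMPs are anchored at the cell surface, and Mmp14 is the best known activator of MMP2. Of the 6, Mmp15, Mmp17 and Mmp24 were higher in CD1530 at D10, Mmp14 and Mmp25 were lower, and Mmp16 was not called. Mmp14 libraries were at 740, 749 and 741 CPM in CD1530 and 1173, 1161 and 1098 CPM in AGN at D10, with no overlap, from 218, 210.3 and 182 CPM in PM. The log2 difference was -0.62 ± 0.05 (edgeR adjusted p 1.5e-12). The difference was first called at D8.5, with group means of 506 ± 9.0 CPM in CD1530 and 658 ± 14 in AGN.

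Mmp15, another membrane-type protease, separated gradually and in the other direction. It was at 28.0, 29.8 and 26.6 CPM in PM and had risen by D6.25 to 66.9 ± 5.0 CPM in CD1530 and 64.9 ± 2.6 in AGN, means that were not called apart. At D10 the libraries were at 122, 123 and 119 CPM in CD1530 and 28.9, 32.5 and 29.8 CPM in AGN. CD1530 thus reached its highest level while AGN was no longer called different from PM (log2 difference from PM 0.11 ± 0.06, edgeR adjusted p 0.113). The log2 difference between conditions was 0.35 ± 0.05 at D6.75, 0.44 ± 0.06 at D7.5, 0.73 ± 0.06 at D8.5 and 2.00 ± 0.06 at D10 (edgeR adjusted p 1.31e-28).

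Mmp25, a glycosylphosphatidylinositol-anchored protease known from leukocytes, was lower in CD1530 at every day from D6.75. It was at 21.2 ± 2.7 CPM in CD1530 against 32.8 ± 0.92 in AGN at D6.75, and at 14.2 ± 0.52 and 48.5 ± 2.5 CPM at D8.5, where the log2 difference was largest at -1.77 ± 0.08. At D10 the AGN level had fallen to 25.4 ± 1.4 CPM, against 14.2 ± 0.61 CPM in CD1530. The other GPI-anchored member, Mmp17, was higher in CD1530 at D6.25 (9.25, 8.14 and 10.2 CPM against 6.95, 6.79 and 6.54 CPM). That call was lost without CD1530 replicate 3 (edgeR adjusted p 0.102), and Mmp17 was called again at D6.75, D8.5 and D10. Mmp24, a protease known from neurons, differed by 2.04 ± 0.46 at D10 on levels of 0.929 ± 0.17 and 0.222 ± 0.03 CPM. Of its exon bases 13.6% are shared with BC029722 on the opposite strand, and the strand setting of the counting was not given. At D10, 5 of 6 neural markers were higher in CD1530, with Neurog2 at 0 counts in AGN. The other, Stmn2, was called lower in CD1530, at 11.5 CPM against 18.1 CPM in AGN. The neural markers summed to 81.7 to 86.7 CPM in CD1530, 33.2 to 36.4 CPM in AGN and 129 to 139 CPM in PM. The PM sum was mostly Stmn2 and Tubb3, at 82.45 and 49.0 CPM, while Sox1 and Pax6 were at 0.0816 and 0.764 CPM in PM. The part of neural cells in the Mmp24 result was not tested.

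**Figure D3:**
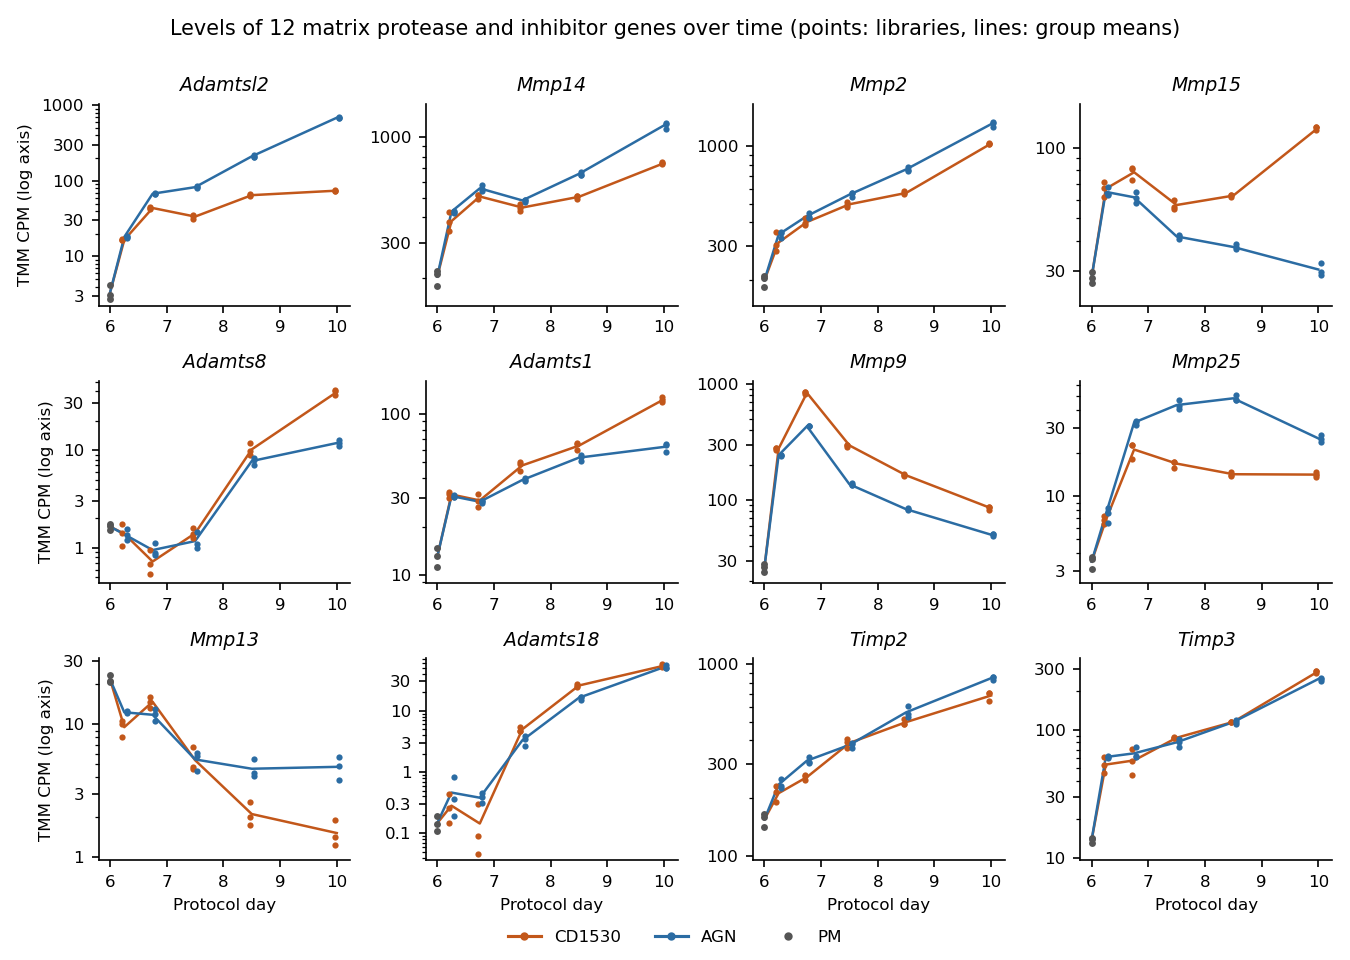
Level of 12 members in TMM CPM (y axis, log scale, a different range in each panel) against protocol day (x axis); points are libraries, lines join group means, and grey points are PM. Adamtsl2, Mmp14 and Mmp2 end higher in AGN, Mmp15, Adamts8, Adamts1 and Mmp9 end higher in CD1530, Mmp9 peaks at D6.75 and Adamts18 rises from D7.5 in both conditions.

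The proteoglycan-cleaving ADAMTS proteases act on aggrecan and versican, and all 7 had risen from PM by D10 in both conditions. Between conditions they split, with Adamts8, Adamts1 and Adamts9 higher and Adamts20, Adamts5 and Adamts15 lower in CD1530 at D10, and Adamts4 not called. Adamts8 was at 1.53, 1.75 and 1.67 CPM in PM. It reached 40.8, 40.3 and 36.7 CPM in CD1530 and 12.6, 11.9 and 10.9 CPM in AGN at D10, groups that did not overlap, with a log2 difference of 1.74 ± 0.10 (edgeR adjusted p 6.16e-19). Of its exon bases 10.6% are shared with an antisense gene, and since the strand setting of the counting was not given, reads of such partners cannot be told apart. Adamts1, which cuts versican, was at 128, 119 and 123 CPM in CD1530 and 64.0, 65.6 and 57.8 CPM in AGN, a log2 difference of 0.98 ± 0.06 (6.85e-18).

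Adamts20, known for versican processing in pigment cell migration, was at 2.93, 2.59 and 3.37 CPM in CD1530 at D10 and 15.2, 17.6 and 15.9 CPM in AGN. The log2 difference was -2.45 ± 0.18 (edgeR adjusted p 3.25e-15), the second largest among members. Adamts5, a main aggrecanase of cartilage, rose from 0.825 ± 0.35 CPM in PM to 29.6 ± 2.7 with CD1530 and 46.9 ± 2.0 with AGN, a log2 difference of -0.66 ± 0.08. Adamts4, the other main aggrecanase, was at 52.4 ± 1.0 and 59.1 ± 2.9 CPM, a difference of -0.17 ± 0.08 that was not called (adjusted p 0.0615). Aggrecan itself (Acan) was at 4.66 CPM in CD1530 and 215 CPM in AGN.

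The procollagen N-proteinases remove the N-terminal propeptide of fibrillar procollagens. Adamts14 was higher in CD1530 from D6.75 on. At D10 its libraries were at 46.6, 47.2 and 50.4 CPM in CD1530 and 25.6, 26.3 and 23.8 CPM in AGN, with no overlap and a log2 difference of 0.93 ± 0.08 (edgeR adjusted p 6.42e-13). Adamts2 stood at 21.4, 20.7 and 18.5 CPM in CD1530 and 16.4, 19.6 and 16.6 CPM in AGN. The groups overlapped and were not called (adjusted p 0.187). Adamts3 was lower in CD1530 at D10, with 3.54, 3.63 and 4.27 CPM against 6.13, 5.24 and 5.53 CPM. The substrates Col1a1 and Col1a2 were at 9785 and 5109 CPM in CD1530 and 11520 and 7783 CPM in AGN.

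Adamts7 and Adamts12, which cut the cartilage protein COMP, were both lower in CD1530 at D10. Adamts7 was at 64.1, 62.1 and 65.3 CPM in CD1530 and 71.5, 75.0 and 73.0 CPM in AGN (log2 difference -0.20 ± 0.06, edgeR adjusted p 0.00749). Adamts12 was at 58.1, 53.9 and 54.3 CPM against 66.5, 72.3 and 69.8 CPM (-0.33 ± 0.12, 0.0303). The Adamts12 call was lost, with adjusted p up to 0.0888, without CD1530 replicate 2 or 3 or AGN replicate 2 or 3. At D6.75, where CD1530 replicate 1 stood apart, the Adamts12 difference was -0.58 with that library and -0.37 without it, called both times.

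Among the other ADAMTS genes, Adamts6 and Adamts10, relatives that act on fibrillin microfibrils, were lower in CD1530 at D10. Adamts6 was at 29.6, 25.4 and 26.9 CPM in CD1530 and 64.0, 69.4 and 64.4 CPM in AGN (log2 difference -1.27 ± 0.09, edgeR adjusted p 2.08e-14). Adamts10 was at 45.6, 43.3 and 42.1 CPM against 74.5, 80.8 and 69.4 CPM (-0.78 ± 0.06, 1.49e-13). Both groups of libraries were well separated for each gene. Adamts18 and Adamts16, for which substrates are less well known, had the largest rises from PM among the ADAMTS proteases in both conditions. Adamts18 had 3, 4 and 2 counts in the PM libraries and stood at 54.3 ± 3.0 CPM in CD1530 against 51.4 ± 3.6 in AGN at D10. Most of this came after D6.75, when it was at 0.145 ± 0.14 and 0.381 ± 0.07 CPM. Adamts16 rose from 0.235 ± 0.12 CPM in PM to 31.7 ± 2.1 and 33.6 ± 2.8 CPM. Neither was called between conditions at D10, with differences of 0.08 ± 0.08 and -0.08 ± 0.08, whereas Adamts18 was higher in CD1530 at D7.5 and D8.5.

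A few members, Adamts15, Adamts6 and Adamts3, were called in opposite directions on different days. How many of all genes were called in both directions was not counted. Adamts15, a versican-cleaving protease, was at 16.7 ± 0.19 CPM in CD1530 against 24.0 ± 1.2 in AGN at D7.5, at 39.7 ± 0.59 and 24.1 ± 0.87 CPM at D8.5, and at 85.1 ± 2.9 and 116 ± 3.8 CPM at D10. Its log2 difference was -0.52, 0.72 and -0.45 on these days, each called and without overlap of the libraries. From D8.5 to D10 it rose by 1.10 on the log2 scale in CD1530 and by 2.27 in AGN. Adamts6 was called higher in CD1530 at D7.5 by 0.26, and that call was lost without CD1530 replicate 2 or 3 or AGN replicate 1 or 3 (edgeR adjusted p up to 0.255). Adamts3 was called higher at D8.5 by 0.51, and that call was lost without any 1 of the 6 libraries except AGN replicate 3 (up to 0.116). Over the 5 days the difference between conditions changed with time in 32 members, or 72.7% of them (edgeR interaction with 4 degrees of freedom), against 48.8% of all genes.

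**Figure D4:**
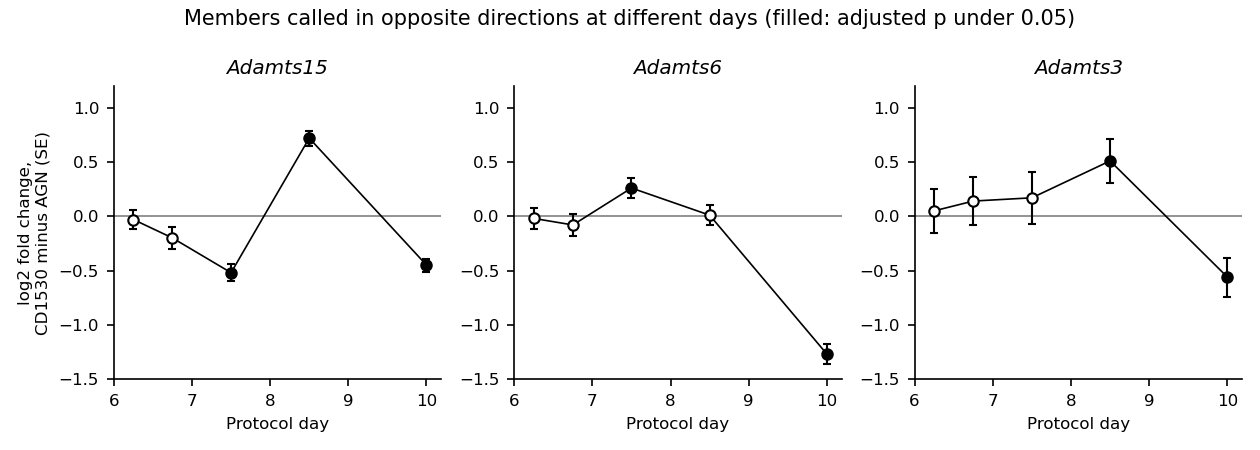
Log2 fold change, CD1530 minus AGN (y axis), against protocol day (x axis) for Adamts15, Adamts6 and Adamts3; bars are SEs and filled points had an adjusted p under 0.05. Adamts15 crosses 0 between D7.5 and D8.5 and again before D10, and Adamts6 and Adamts3 end below 0.

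The chromosome 9 genes whose promoter stretches are shown above did not follow the general rise by D10, except for Mmp1a in CD1530. Mmp13 (interstitial collagenase of cartilage), Mmp3 and Mmp10 (stromelysins), Mmp12 (macrophage elastase) and Mmp27 were lower than in PM at D10 in both conditions. They were 5 of the 8 members lower in CD1530 and 5 of the 7 lower in AGN at D10, and the others were Mmp24 and Mmp19 in both and Adamtsl5 in CD1530. Mmp3 was at 109, 108 and 95.8 CPM in PM and still above 110 CPM in every D6.75 library. At D10 it was at 34.7, 36.8 and 36.0 CPM in CD1530 and 63.4, 59.8 and 58.2 CPM in AGN, a log2 difference between conditions of -0.76 ± 0.07 (edgeR adjusted p 2.68e-12). At D6.75 its call between conditions (-0.16, adjusted p 0.0488) rested on libraries that overlapped. It was lost without any 1 of the 6 libraries except CD1530 replicate 1, with differences from -0.24 to -0.07 and adjusted p up to 0.371.

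Mmp13 was at 23.4, 20.7 and 21.3 CPM in PM. At D10 it was at 1.41, 1.93 and 1.24 CPM in CD1530 and 4.88, 5.72 and 3.80 CPM in AGN. The groups did not overlap, and the log2 difference was -1.65 ± 0.22 (edgeR adjusted p 4.83e-08). Mmp12 stayed between 18.0 and 25.0 CPM in every library after PM and was not called between conditions on any day. Mmp10 was lower in CD1530 at D6.75, D7.5 and D8.5 but not called at D10 (14.1 ± 0.73 and 14.9 ± 1.3 CPM). Mmp27 was at 1.48 ± 0.26 CPM in PM, and in AGN at D10 all 3 libraries had at most 3 counts. The PM mean was 8.13-fold the level of 3 counts per library in that group, a ratio without a confidence limit. Mmp1a, an interstitial collagenase, was the exception in the cluster. Its libraries were at 2.93, 2.42 and 3.94 CPM in CD1530 and 1.19, 1.02 and 1.6 CPM in AGN at D10, and it was called higher in CD1530 (1.27 ± 0.23, 1.38e-05).

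**Figure D5:**
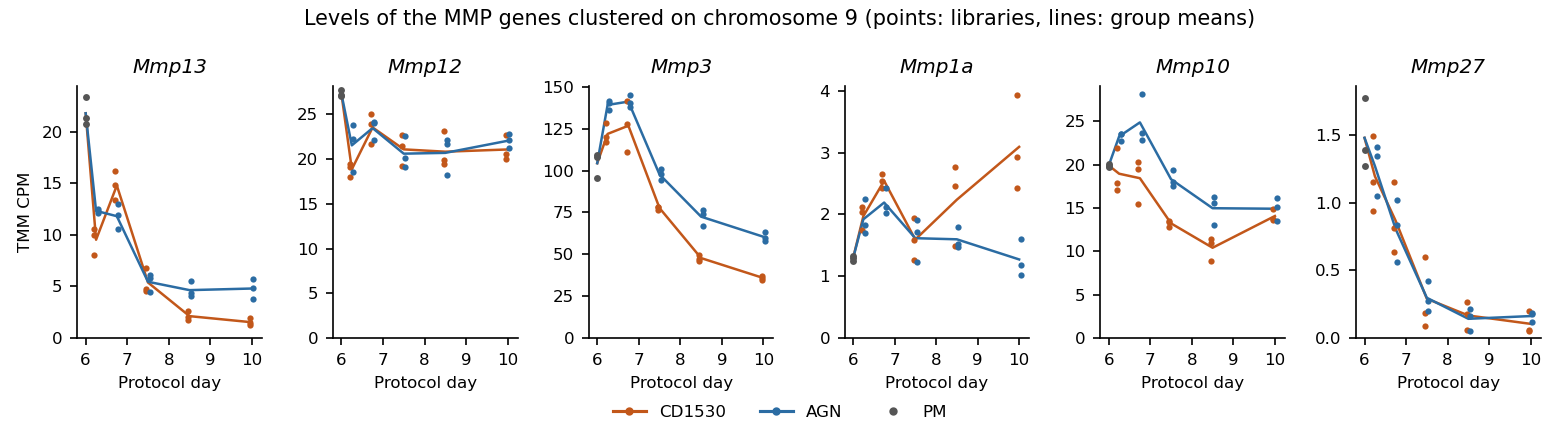
Level of the 6 clustered MMP genes in TMM CPM (y axis, linear from 0, a different range in each panel) against protocol day (x axis), in gene order; points are libraries, lines join group means and grey points are PM. Mmp13, Mmp3 and Mmp27 fall well below PM, Mmp12 stays near 20 CPM, and Mmp1a separates at D10 on levels under 4 CPM.

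Among the remaining MMPs, Mmp11 (stromelysin 3, known from remodelling stroma) rose in both conditions from 23.7 ± 1.3 CPM in PM. At D10 it was at 81.2, 84.6 and 86.3 CPM in CD1530 and 88.8, 92.3 and 87.9 CPM in AGN, a difference of -0.09 ± 0.05 that was not called (adjusted p 0.0911). Mmp23 was at 15.5, 14.9 and 15.5 CPM in CD1530 and 15.1, 13.0 and 14.6 CPM in AGN. Those groups overlapped and were not called. Mmp19 was at 7.73, 8.37 and 7.25 CPM in CD1530 and 8.19, 10.7 and 10.7 CPM in AGN, and was called lower in CD1530 (-0.34 ± 0.12, edgeR adjusted p 0.0149) although the libraries overlapped. That call was lost without CD1530 replicate 3 or AGN replicate 2 or 3 (up to 0.0862), and 28.3% of the Mmp19 exon bases are shared with genes on the opposite strand. Mmp28 (epilysin) was lower in CD1530 by 0.79 ± 0.14, at 6.11 ± 0.22 and 10.6 ± 1.8 CPM.

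Of the inhibitors, Timp2 was lower in CD1530 at D10 and neither Timp1 nor Timp3 was called at any day. Timp2 libraries were at 645, 706 and 706 CPM in CD1530 and 851, 858 and 822 CPM in AGN, with no overlap and a log2 difference of -0.30 ± 0.06 (edgeR adjusted p 0.000122). Timp3, which binds to the matrix and also blocks aggrecanases, was at 13.9, 14.3 and 12.9 CPM in PM. At D10 its libraries were at 291, 280 and 290 CPM in CD1530 and 255, 251 and 243 CPM in AGN, which did not overlap, and the difference of 0.20 ± 0.09 was not called (adjusted p 0.0888). It was called in 3 of the alternative analyses. Of the Timp3 exon bases, 21.3% are shared with Syn3 on the opposite strand. Timp1 was at 116 ± 5.1 and 106 ± 1.8 CPM.

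Ratios taken within each library, on levels per kb, compare proteases with inhibitors independently of the scaling between libraries. The ratio of Mmp2 to Timp2 at D10 was 1.74 ± 0.092 in CD1530 and 1.79 ± 0.022 in AGN, with overlapping ranges of 1.69 to 1.85 and 1.77 to 1.81. The ratio of Mmp14 to Timp2 was 0.71 ± 0.035 in CD1530 and 0.886 ± 0.013 in AGN. The ratio of Mmp14 to Mmp2 was 0.407 ± 0.0034 and 0.496 ± 0.0018, and in PM it was 0.577 ± 0.012. The ratio of Mmp9 to Timp1 was 0.16 ± 0.0095 in PM, 2.06 ± 0.33 in CD1530 and 1.14 ± 0.067 in AGN at D6.75, and 0.183 ± 0.014 and 0.118 ± 0.004 at D10. No test was made on the ratios.

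Other genes of the same pathway were taken from lists by role. Of 16 other matrix-directed proteases, 8 were higher and 6 lower in CD1530 at D10, where 22.7% of all genes were called higher and 24% lower (median log2 difference 0.13, against -0.02 over all genes). The plasminogen activators Plat and Plau were among the higher ones, at 478 and 221 CPM in CD1530 and 102 and 57.2 CPM in AGN. Of 13 other regulators, 4 were higher and 7 lower (median -0.14). Reck, a membrane inhibitor of MMPs, was at 42.3 CPM in CD1530 and 84.3 CPM in AGN, and Pcsk5, a proprotein convertase, was at 104 and 234 CPM. Of 13 substrates, 1 was higher (the proteoglycan decorin, Dcn, at 1054 and 387 CPM) and 7 were lower (median -0.46), with Acan and Col2a1 the farthest apart.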

How the data were processed

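RNA-seq counts of 33 libraries in 11 groups of 3 were used. The values are whole, unnormalized gene counts as deposited, made by the authors with STAR and featureCounts on GRCm38. The annotation release, strand setting and treatment of reads with several alignments were not given in the sources used here. The deposited counts had been filtered: no gene had its third-highest library under 0.6115 CPM. Gene positions, exon lengths and overlaps came from GENCODE M21, which matched 17117 of 17120 identifiers.

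In R 4.3.3 with edgeR 4.0.16, all libraries entered 1 robust quasi-likelihood fit with TMM scaling and a mean per group. F tests covered CD1530 against AGN at each day, D6.25 and D10 against PM, successive steps and a condition by time interaction. P-values were adjusted by Benjamini-Hochberg over 17120 genes, and a call needed an adjusted p under 0.05. Errors of log2 differences are SEs. A group with at most 3 counts in each library was at the floor. Folds against it take the floor as 3 counts per library and hold no confidence limit. CPM per kb divides by the union of exons.

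Depth ran from 17116084 to 38120841 counts, with a biological coefficient of variation of 4.68% by edgeR. No 2 replicate columns were identical, and replicates of a group correlated at 0.99 to 0.9951 on log CPM. Each pair differed by more than sampling noise (chi-square per gene at least 1.58). The value was 20.3 and 21.5 for the pairs with CD1530 replicate 1 at D6.75, and at most 4.76 in the other pairs. All libraries were kept.

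Up to about 25 members were chosen to be named, as those with the highest group means in each role group. Also chosen were members called at D10 with an absolute log2 difference and a mean CPM in a condition of at least 1 each. Most are given with every library, and Adamts15 as mean ± SD. Others, some of them also with every library, are named where a pattern or a count called for them, chosen after their values were seen. The members, lists and rules were chosen with earlier results of these data known. Alternatives were DESeq2 1.42.0 and its size factors, library size scaling, 2 filters on low counts, a fit that was not robust, only the compared groups, a replicate block, thinning to the smallest total and each library left out. Sequences came from RefSeq (GRCm38.p6).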

Additional observations from a re-analysis of the deposited data

Results flagged for a closer look

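The difference between CD1530 and AGN changed over the 5 days in 32 of 44 members by the edgeR interaction test, against 48.8% of all genes. In 3 of them the conditions were called apart in both directions, a pattern whose share among all genes was not counted. The interaction had an adjusted p of 6.94e-14 for Adamts15 (lower in CD1530 at D7.5 and D10, higher at D8.5), 1.55e-11 for Adamts6 (higher at D7.5, lower at D10) and 0.0159 for Adamts3 (higher at D8.5, lower at D10). For Adamts15 each of these calls was kept in all 6 fits that left out 1 library of the comparison. The early calls of Adamts6 and Adamts3 were lost in 4 and 5 of 6 such fits.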

How the results depend on the processing

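Of the counts of members called in the 18 comparisons, 1 moved by over 1.5 times. At D6.25 the main count of 2 for CD1530 against AGN was 6 (2 higher, 4 lower) when only the compared groups were fitted, 6 without CD1530 replicate 2 and 1 without CD1530 replicate 3 (range 1 to 6 with 1 library left out). The D6.75 count of 12 was 8 with only the compared groups and 10 to 17 with 1 library left out, and the D10 count of 31 ran from 29 to 35 over all alternatives. With the replicate number as a block the counts were 3, 14, 20, 26 and 31 at the 5 days and 32 for the interaction. No strong pairing by replicate number was seen. Deviations of same-numbered libraries over all genes correlated between -0.065 and 0.106, and in 0 of 17 comparisons was every pair over 0.1. Libraries with different numbers were not compared in this way, so a weak pairing was not tested.

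For the 25 named members at D10, 362 alternative values kept direction and call, 7 lost the call (Adamts12 in 4, Mmp19 in 3), 6 gained it (Timp3 in 3, Mmp11 in 2, Adamts2 in 1) and 0 reversed. Scaling by library size shifted the median of all genes for D10 against PM from -0.002 to -0.152 in AGN and from 0.043 to -0.069 in CD1530. For D10 against D8.5 it went from -0.035 to -0.127 in CD1530 and from -0.013 to -0.113 in AGN. The depth limits members near 1 CPM, such as Mmp24, Mmp27 and Adamts18 before D7.5.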
